A study of Homo sapiens with 40 samples.

Results

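The 6 long non-coding RNAs (lncRNAs) MALAT1, NEAT1, KCNQ1OT1, MIR17HG, OIP5-AS1 and LINC00657 were followed through every RNA-Seq library of a study in HEK293 cells, an established line of human embryonic kidney origin. They were taken by symbol from the 55765 gene symbols of the count files, as 4 transcripts known from the nucleus (MALAT1, NEAT1, KCNQ1OT1 and MIR17HG) beside 2 known from the cytoplasm (OIP5-AS1 and LINC00657, whose current name is NORAD). All 6 were found, and all 6 passed the filter on low counts in each experiment. The single cell line is the only model here, and where a transcript is located was not measured in these libraries.

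The study asked how the DEAD-box proteins eIF4A1, eIF4A2 and DDX6 differ in the RNAs they hold, and how the Ccr4-Not complex acts on translation. In RNA immunoprecipitation (RIP), antibodies to the endogenous proteins pulled RNA out of a cleared lysate (eIF4A1 IP, eIF4A2 IP and DDX6 IP), and total RNA of the lysate served as the reference, with 3 libraries in each of the 4 groups and no siRNA. For the gradients, CNOT1, which holds Ccr4-Not together, was depleted by siRNA or cells were given a control siRNA, and 4 libraries each were made of input RNA, of the pooled subpolysomal fractions 1 to 5 and of the pooled polysomal fractions 6 to 11, after nuclei and debris had been spun out of the lysate loaded on the sucrose gradient. The sources used here do not say whether the input RNA was set aside before or after that spin. In the TNRC6 experiment, total RNA of cells given control siRNA was set beside that of cells given siRNAs against both TNRC6A and TNRC6B, with 2 libraries per group. A single siRNA was used for each target gene.

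MALAT1 is an abundant transcript of nuclear speckles, bodies rich in splicing factors, and NEAT1 is the scaffold of paraspeckles, which assemble on its long isoform. KCNQ1OT1 lies antisense within KCNQ1 and silences imprinted genes around it in cis, and MIR17HG is the primary transcript of the miR-17-92 microRNA cluster. OIP5-AS1, also called cyrano, carries a long site for the microRNA miR-7, while NORAD is a cytoplasmic transcript with many binding sites for Pumilio proteins such as PUM2, which recruit Ccr4-Not to their targets. MALAT1 and the long NEAT1 isoform end in a triple helix and not in a poly(A) tail, which matters here because the library kit captures RNA through runs of A.

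On GRCh37 with GENCODE 44 annotation, MALAT1 is a gene of 10434 bp on the + strand at chr11:65265111-65275544 with a single exon in its longest transcript. NEAT1 lies on the same strand at chr11:65190245-65213011, and its exons together cover 22767 bp. KCNQ1OT1 occupies chr11:2618538-2721233 on the − strand, wholly inside KCNQ1, which is read from the other strand. MIR17HG runs on the + strand at chr13:91999940-92049846. OIP5-AS1 is on the + strand at chr15:41576156-41614590, where 13120 bp are shared with OIP5 on the other strand and 1599 bp with NUSAP1 on the same strand. LINC00657 is the single-exon NORAD gene of 5401 bp on the − strand at chr20:34633540-34638940. The strand option of the read counter was not stated, so reads of KCNQ1OT1 and KCNQ1, or of OIP5-AS1 and OIP5, may not have been separated.

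The cluster carried by MIR17HG is shown because the transcript is the precursor of these microRNAs, although the libraries measured the host transcript and not the microRNAs. The 6 hairpins span 787 bp at chr13:92002859-92003645 (GRCh37, + strand) and lie in an exon of 3 of the 16 annotated MIR17HG transcripts, and in an intron of the reference transcript. The mature sequences from RefSeq (GRCh38.p14) follow, with the seed, bases 2 to 8, in capitals. They hold 4 distinct seeds, since miR-17-5p shares its seed with miR-20a-5p and miR-19a-3p with miR-19b-3p.
miR-17-5p: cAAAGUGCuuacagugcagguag
miR-20a-5p: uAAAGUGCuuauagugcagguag
miR-18a-5p: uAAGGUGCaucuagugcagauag
miR-19a-3p: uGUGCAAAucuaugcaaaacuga
miR-19b-3p: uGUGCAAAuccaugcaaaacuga
miR-92a-3p: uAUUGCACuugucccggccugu

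NORAD is the member with the highest level per kb, and its Pumilio motifs set it apart in sequence. The motif TGTANATA was searched on the transcript strand, overlaps allowed, in the longest transcript of each gene. NORAD held 15 matches, which is 2.78 per kb, against 0.26 per kb in NEAT1, 0.11 in OIP5-AS1 and 0.1 in KCNQ1OT1. MALAT1 and MIR17HG held none. Of 4775 genes whose longest transcript had between 4321 and 6481 bases, 42.3% held at least 1 match and the median was 0. In that set 3 transcripts held at least as many matches as NORAD, and the highest number was 24. Of the NORAD matches, 4 are given with 30 bases of GRCh37 each, read on the − strand of chromosome 20, and the motif is in capitals.
site 1, chr20:34638104-34638133: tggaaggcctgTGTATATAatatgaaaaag
site 3, chr20:34637624-34637653: aaatcacatttTGTAAATAcctttttgtta
site 5, chr20:34637414-34637443: tgtgtatatagTGTACATAaaggacagacg
site 11, chr20:34635893-34635922: caaccctactgTGTATATAgcggacaaact
The first of these matches begins at base 819 of the transcript and the last of the 15 ends at base 4664. A match is a run of letters and was not tested as a binding site.

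**Figure D1:**
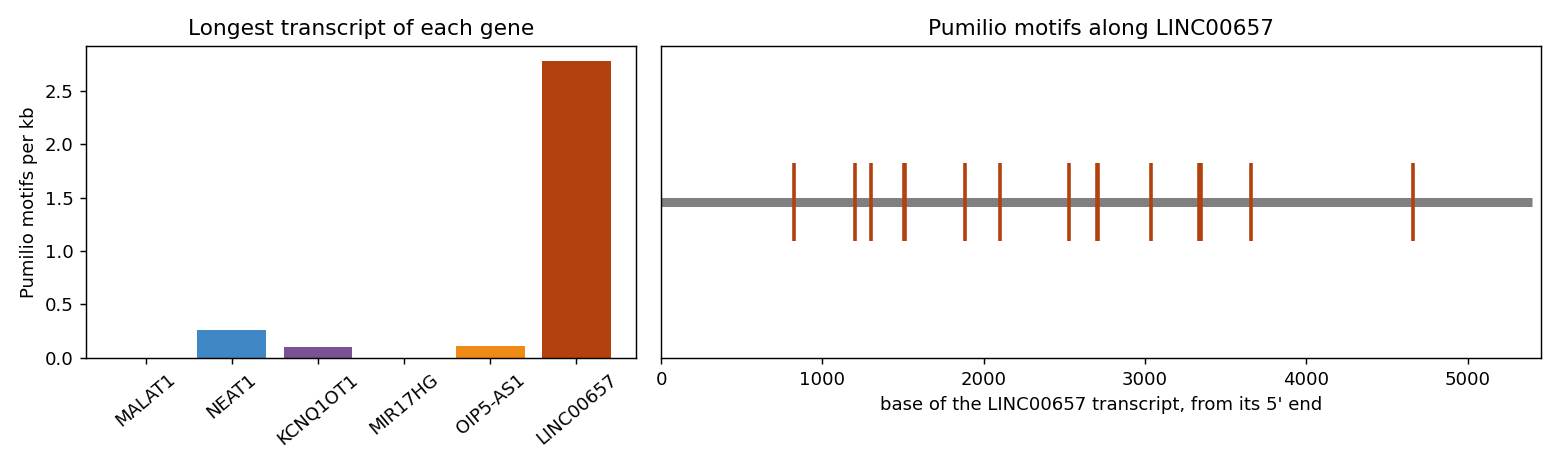
Left, matches to the Pumilio motif per kb of the longest transcript of each gene (bars from 0). Right, the 15 matches (vertical marks, of which some neighbours merge) along the LINC00657 transcript, in bases from its 5′ end. LINC00657 holds 2.78 matches per kb and no other member more than 0.26.

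The known miR-7 site of OIP5-AS1 was found in the annotated sequence. A match to the miR-7 seed occurred 3 times in the longest OIP5-AS1 transcript and 6 times in that of KCNQ1OT1, while the other members held none. Among 1821 transcripts of similar length to that of OIP5-AS1, 48.1% held such a match. At 1 of the OIP5-AS1 matches, bases 2934 to 2940, a further run of 14 bases pairs with miR-7 between its base 10 and its 3′ end, while the longest such run at the other OIP5-AS1 matches was 5 or 3 bases. In the lines below the miR-7 seed and its match are in capitals.
miR-7-5p: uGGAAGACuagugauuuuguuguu
OIP5-AS1, chr15:41592768-41592797, + strand: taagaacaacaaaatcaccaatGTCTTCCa

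For MALAT1 and NEAT1, whose full-length transcripts end without a poly(A) tail while the short NEAT1 isoform has one, the windows of 30 bases richest in A are given because the kit captures RNA through such runs. The window in MALAT1 held 20 A and that in NEAT1 held 26 A, with longest unbroken runs of 13 and 22 in the transcripts. Such windows were not particular to MALAT1 and NEAT1. The richest window held 29 A in KCNQ1OT1, 29 in OIP5-AS1, 20 in MIR17HG and 17 in LINC00657. The longest runs there were 29, 29, 10 and 10. In the lines below A is in capitals (GRCh37, + strand). Whether these runs carried MALAT1 and NEAT1 into the libraries was not tested.
MALAT1, chr11:65267253-65267282: AgAAgAAAAAAgAcAAgctAggAAAcAAAA
NEAT1, chr11:65208313-65208342: cAAAAAAAAAAAAAAAAAAAAAAccAAgAA

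Levels are given in CPM, the usual scaling of counts by the total of the library, with totals adjusted by the trimmed mean of M-values (TMM) within each of the 3 experiments. The 40 libraries held 15353317 to 46018900 counts each, and a member had between 70 and 131528 counts in a library. Of the marker genes set for HEK293, VIM (105 to 676 CPM), NEFM (197 to 6045 CPM) and LIN28B (126 to 267 CPM) were well above the markers of leukocytes, liver and red cells, PTPRC, ALB and HBB, which reached at most 0.0775, 0.4 and 0.116 CPM. KRT18 (2.72 to 51 CPM) and KRT8 (2.66 to 11.7 CPM) were lower, and PAX2 was close to absent at 0.0984 to 1.57 CPM.

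CNOT1, the siRNA target, checks the gradient labels. In input it stood at 687, 711, 662 and 628 CPM with control siRNA and at 41.4, 36.8, 39.9 and 40.4 CPM with CNOT1 siRNA. In polysomal RNA the values were 469.9, 501, 28.3 and 479 CPM with control siRNA and 29, 24, 631 and 31.6 CPM with CNOT1 siRNA. The libraries labelled polysomal replicate 3 therefore go against their labels in both groups, the 1 labelled control having the low level and the 1 labelled CNOT1 siRNA the high level. They were kept as labelled, and the members' results that rest on them are given with and without them. TNRC6A stood at 178 and 189 CPM with control siRNA and 40.5 and 64.7 CPM with TNRC6A/B siRNA, and TNRC6B at 67.6 and 73.1 CPM against 17.7 and 26.3 CPM, so neither overlapped between groups. Nothing in the labels says that replicates came from separate cultures, so p-values measure the spread between these libraries.

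Levels can be compared between genes only per length. The lengths came from the GENCODE annotation used for the loci. It need not hold the same exons as the annotation on which the authors counted reads. The values per kb and the order of the members may therefore depend on it, which was not tested. In control siRNA input, LINC00657 had a mean level of 83.8 CPM per kb of all its exons. NEAT1 followed at 8.99, OIP5-AS1 at 7.99, MALAT1 at 4.33, MIR17HG at 2.57 and KCNQ1OT1 at 0.176 CPM per kb. The places of the middle members depend on the length used, since on the longest transcript OIP5-AS1 (20.1 CPM per kb) stood above NEAT1 (9 CPM per kb), and MIR17HG (5.06 CPM per kb) above MALAT1. LINC00657 came first and KCNQ1OT1 last on both lengths. In lysate total RNA of the RIP experiment the ends of the order did not change, with 69.5 CPM per kb for LINC00657 and 0.319 for KCNQ1OT1.

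Across the 12 groups, the highest mean level was in control siRNA subpolysomal RNA for MALAT1 (354 ± 65 CPM, SD, n = 4), NEAT1 (1291 ± 263 CPM), MIR17HG (248 ± 43.4 CPM) and OIP5-AS1 (704 ± 148 CPM). For LINC00657 it was in the eIF4A2 IP, at 2684 ± 306 CPM (SD, n = 3). KCNQ1OT1 was highest in the TNRC6 experiment, where it measured 72.3 and 86.7 CPM with control siRNA and 63.2 and 70.6 CPM with TNRC6A/B siRNA, against group means of 9.96 to 29.6 CPM elsewhere. The 3 experiments were made and scaled separately, so levels set across them carry no test.

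**Figure D2:**
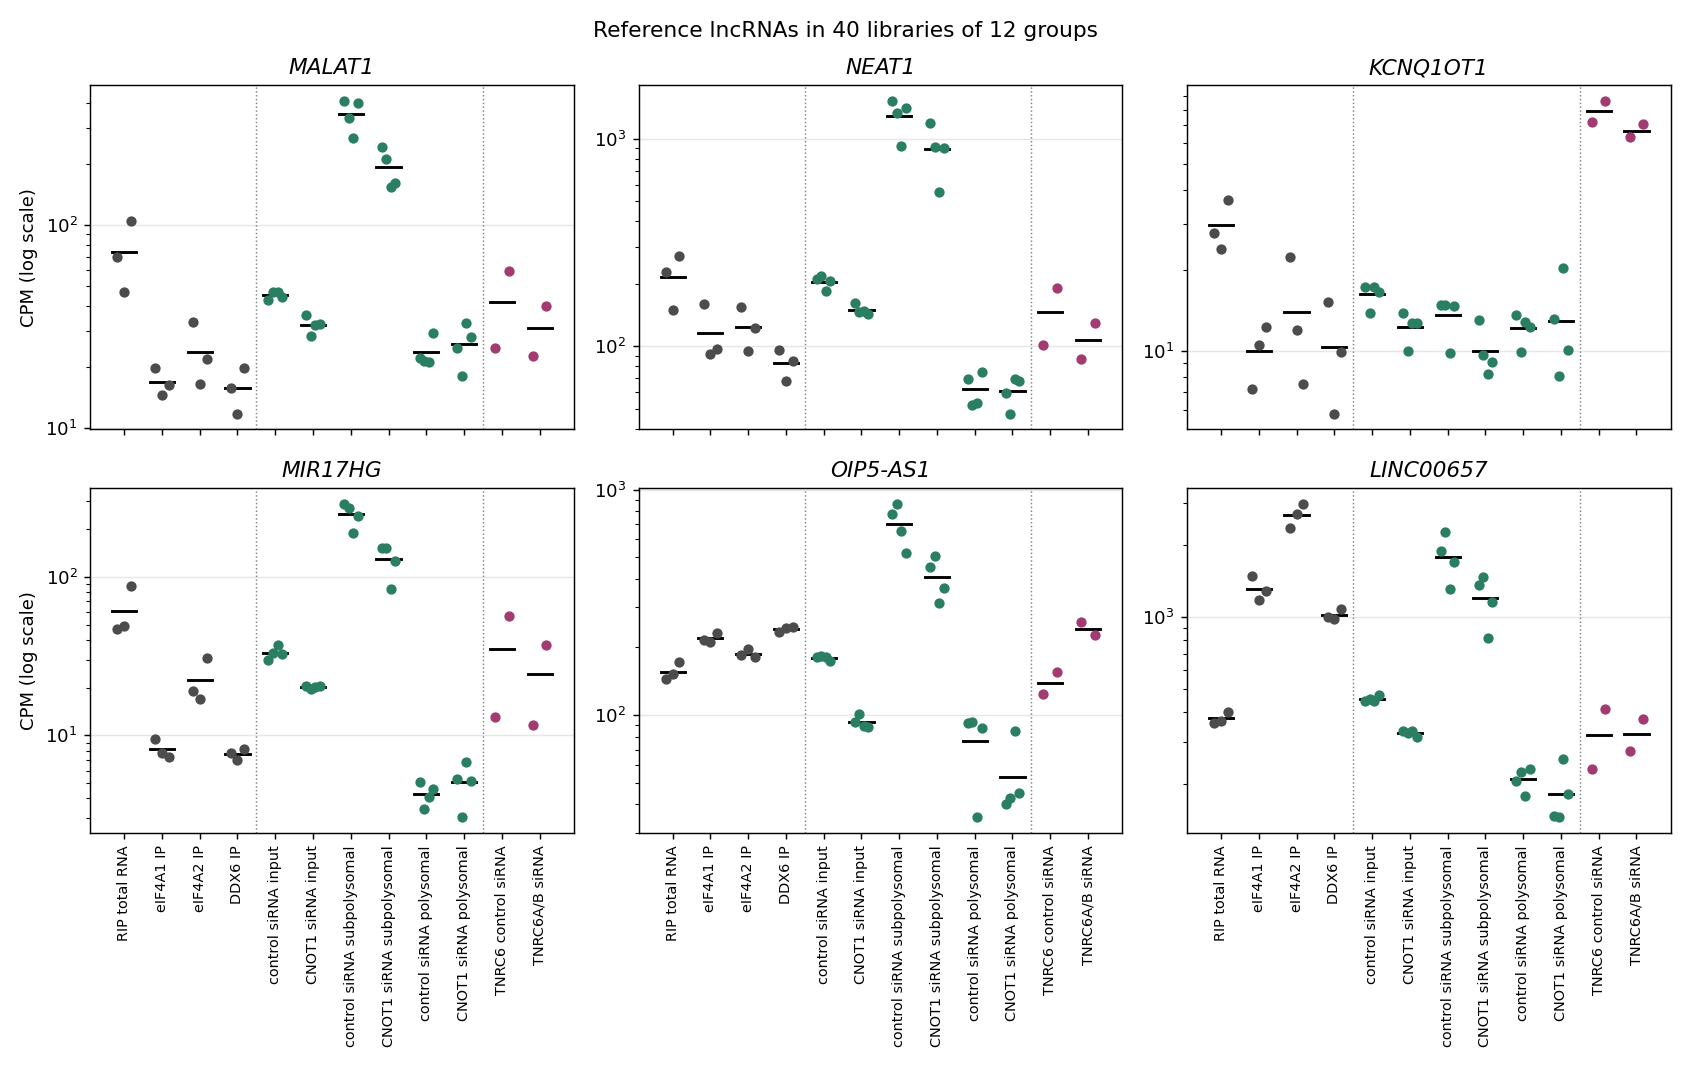
Level of each member (CPM, log axis) in the 40 libraries, by group. Points are libraries, horizontal lines are group means, and dotted lines part the RIP, gradient and TNRC6 experiments. MALAT1, NEAT1, MIR17HG and OIP5-AS1 peak in subpolysomal RNA, LINC00657 in the eIF4A2 IP, and KCNQ1OT1 in the TNRC6 experiment.

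The RIP experiment asked which RNAs the 3 proteins hold. Its libraries include no IP with control IgG, so how much of the RNA in an IP was captured nonspecifically was not tested. The nuclear and cytoplasmic members moved apart in this experiment. All 4 nuclear members were lower in each of the 3 IPs than in total RNA by edgeR's quasi-likelihood test, with Benjamini-Hochberg adjusted p-values (adjusted p) below 0.05 over 17474 genes. LINC00657 was higher in all 3, and OIP5-AS1 was higher in the eIF4A1 and DDX6 IPs. Over all genes tested, 26.5% were called lower and 26.1% higher in the eIF4A1 IP, 25.8% and 24.5% in the eIF4A2 IP, and 23.3% and 22.7% in the DDX6 IP, so a call alone was common. The median log2 fold change of the 6 members was -1.23, -0.94 and -1.44 in the eIF4A1, eIF4A2 and DDX6 IPs, against 0.04, 0.01 and 0.01 over all genes. The 3 comparisons share the same total RNA libraries, so they are not independent of one another.

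MALAT1 measured 70.0, 47.0 and 105 CPM in total RNA. It fell to 19.9, 14.5 and 16.3 CPM in the eIF4A1 IP, 33.2, 16.5 and 21.8 CPM in the eIF4A2 IP and 15.8, 11.8 and 19.7 CPM in the DDX6 IP. Every IP library was below every total RNA library, while the IPs overlapped with each other. The log2 fold change was -2.13 (SE 0.31, edgeR adjusted p = 8.95e-05) for eIF4A1, -1.64 (SE 0.30, adjusted p = 5.92e-04) for eIF4A2 and -2.23 (SE 0.31, adjusted p = 1.09e-04) for DDX6. Only 1.91%, 3.49% and 1.55% of genes had a lower fold change in the respective IP.

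NEAT1 measured 227, 149 and 271 CPM in total RNA. In the eIF4A1 IP it was at 160.3, 92.1 and 96.8 CPM, in the eIF4A2 IP at 155, 95.2 and 123 CPM and in the DDX6 IP at 96.5, 68.2 and 85.4 CPM. The eIF4A1 and eIF4A2 libraries overlapped with total RNA, and the DDX6 libraries did not. Its log2 fold changes were the smallest of the nuclear members, -0.89 (SE 0.26, edgeR adjusted p = 0.0123), -0.79 (SE 0.26, adjusted p = 0.0223) and -1.37 (SE 0.27, adjusted p = 0.00111) for eIF4A1, eIF4A2 and DDX6. The eIF4A1 call was lost without total RNA replicate 3 (NEAT1 log2 fold change -0.69, edgeR adjusted p = 0.0608). The eIF4A2 call was lost without total RNA replicate 1 (-0.76, adjusted p = 0.0599) or 3 (-0.60, 0.0997), and without eIF4A2 IP replicate 2 (-0.63, 0.0911) or 3 (-0.78, 0.0506).

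KCNQ1OT1 was the least abundant member, with 27.6, 24.1 and 36.9 CPM in total RNA. It stood at 7.17, 10.5 and 12.3 CPM in the eIF4A1 IP, 22.5, 12 and 7.49 CPM in the eIF4A2 IP and 15.2, 5.81 and 9.9 CPM in the DDX6 IP. No IP library reached the total RNA libraries, although the spread within the eIF4A2 and DDX6 IPs was wide. The log2 fold changes were -1.57 (SE 0.39, edgeR adjusted p = 0.00418), -1.08 (SE 0.38, adjusted p = 0.0303) and -1.52 (SE 0.39, adjusted p = 0.00608). The KCNQ1OT1 call in the eIF4A2 IP was lost without total RNA replicate 1 (log2 fold change -1.13, edgeR adjusted p = 0.0524) or 3 (-0.90, 0.105), and without eIF4A2 IP replicate 2 (-0.99, 0.091) or 3 (-0.78, 0.102).

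MIR17HG had the strongest depletion of the members in the eIF4A1 and DDX6 IPs. From 46.9, 49.3 and 87.6 CPM in total RNA it went to 9.48, 7.75 and 7.27 CPM in the eIF4A1 IP and 7.7, 6.95 and 8.17 CPM in the DDX6 IP. In the eIF4A2 IP it was at 19.1, 16.9 and 30.8 CPM, above every library of the other 2 IPs and below every total RNA library. The log2 fold changes were -2.91 (SE 0.27, edgeR adjusted p = 3.48e-06) for eIF4A1, -3.01 (SE 0.27, adjusted p = 1.13e-05) for DDX6 and -1.46 (SE 0.26, adjusted p = 4.01e-04) for eIF4A2. These are 7.49-fold, 8.05-fold and 2.74-fold lower levels.

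OIP5-AS1, the cytoplasmic transcript with the miR-7 site, varied little. It measured 144, 151 and 171 CPM in total RNA, 215, 211 and 231 CPM in the eIF4A1 IP, 184, 195 and 180.1 CPM in the eIF4A2 IP and 233, 242 and 245 CPM in the DDX6 IP. No library of an IP overlapped with those of total RNA or of another IP. The log2 fold change was 0.50 (SE 0.12, edgeR adjusted p = 0.00333) for eIF4A1 and 0.63 (SE 0.12, adjusted p = 8.82e-04) for DDX6. For eIF4A2 it was 0.26 (SE 0.12, adjusted p = 0.0772), which did not pass, while with the replicate number as a block it did (0.27, adjusted p = 0.0285), in a fit that called 30.4% of genes higher, and so it did without total RNA replicate 3 (OIP5-AS1 log2 fold change 0.34, edgeR adjusted p = 0.0442).

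LINC00657 stood apart from the other members by size. It measured 358, 367 and 400.2 CPM in total RNA. In the eIF4A1 IP it rose to 1483, 1174 and 1280 CPM, in the DDX6 IP to 998, 983 and 1080 CPM and in the eIF4A2 IP to 2372, 2695 and 2984 CPM. None of the 4 groups overlapped with another. The log2 fold change was 2.84 (SE 0.16, edgeR adjusted p = 4.25e-07) in the eIF4A2 IP, a 7.15-fold higher level and the 22nd highest value of the 17474 genes. It was 1.81 (SE 0.16, adjusted p = 2.13e-06) in the eIF4A1 IP and 1.44 (SE 0.15, adjusted p = 2.09e-05) in the DDX6 IP, where 1.33% and 2.24% of genes lay higher.

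Set directly against each other, the IPs differed for MIR17HG and LINC00657. Relative to the eIF4A1 IP, the eIF4A2 IP had more MIR17HG, by a log2 fold change of 1.45 (SE 0.26, edgeR adjusted p = 0.0178) and LINC00657 by 1.03 (SE 0.15, adjusted p = 0.00658), where 0.973% of all genes were called higher, or 7.12% with the replicate number as a block. The other 4 members were not called, with log2 fold changes of 0.49 for MALAT1, 0.09 for NEAT1, 0.49 for KCNQ1OT1 and -0.23 for OIP5-AS1. The OIP5-AS1 libraries of these IPs did not overlap, though its adjusted p was 0.32. The MIR17HG call was lost without eIF4A1 IP replicate 2 (log2 fold change 1.42, edgeR adjusted p = 0.0881) or 3 (1.37, 0.082) and without eIF4A2 IP replicate 3 (1.14, 0.0693), and both calls were lost when only these 6 libraries were fitted (MIR17HG adjusted p = 0.0771, LINC00657 adjusted p = 0.0822).

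Against the DDX6 IP, the eIF4A2 IP held more MIR17HG (log2 fold change 1.55, SE 0.26, edgeR adjusted p = 0.00306) and more LINC00657 (1.39, SE 0.15, adjusted p = 0.00114), where 9.82% of genes were called higher. OIP5-AS1 was lower (-0.36, SE 0.12, adjusted p = 0.0436), where 11.3% were called lower. That OIP5-AS1 call was lost on leaving out any 1 of the 6 libraries, with log2 fold changes of -0.40 to -0.34. It gave adjusted p = 0.12, 0.06 and 0.107 for OIP5-AS1 without eIF4A2 IP replicate 1, 2 and 3, and 0.0794, 0.108 and 0.11 without DDX6 IP replicate 1, 2 and 3. MALAT1 (0.59, adjusted p = 0.172) and NEAT1 (0.58, adjusted p = 0.134) passed only with the replicate block, at edgeR adjusted p = 0.0298 and 0.00993, a fit that called 18.5% of all genes higher and 5 members in place of 3. KCNQ1OT1 had a log2 fold change of 0.43 (adjusted p = 0.442). Between the DDX6 and eIF4A1 IPs no member was called, where 0.0916% of genes (16) were called in either direction (9.9% with the replicate block, and again no member), and the nearest was LINC00657 at -0.36 (SE 0.15, edgeR adjusted p = 0.311).

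**Figure D3:**
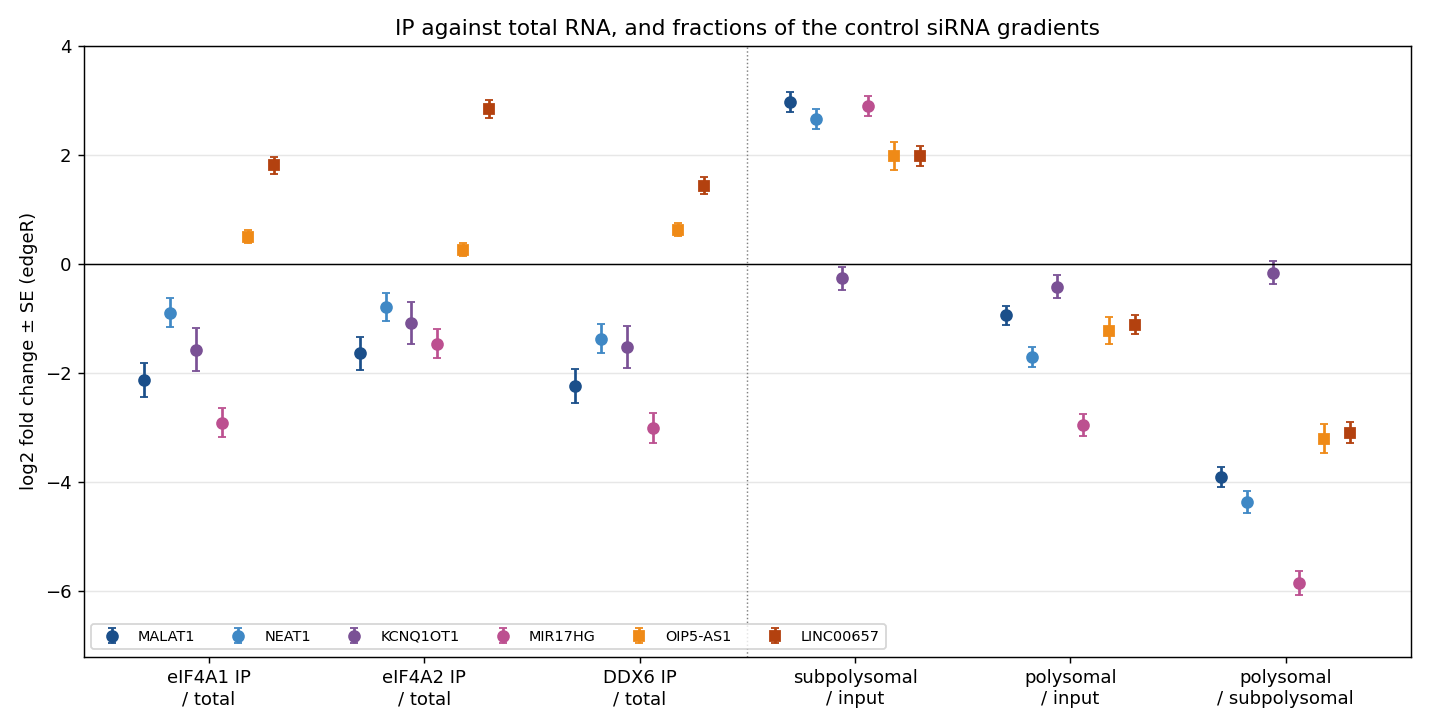
Log2 fold change of each member (edgeR; bars are ± SE) in the IPs against total RNA, left, and between fractions of the control siRNA gradients, right. Circles are nuclear and squares cytoplasmic members. In the IPs the circles lie below 0 and the squares above it. In the gradients all but KCNQ1OT1 lie above 0 for subpolysomal against input RNA and below 0 for polysomal against subpolysomal RNA.

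The gradients showed where the transcripts lay relative to ribosomes. Polysomes are mRNAs loaded with several ribosomes, so a transcript that is not translated is found mainly in the lighter, subpolysomal fractions. In control siRNA cells 5 of the 6 members were lower in polysomal than in subpolysomal RNA, where edgeR called 37% of 16776 genes lower. The nuclear MIR17HG, NEAT1 and MALAT1 fell further than the cytoplasmic OIP5-AS1 and LINC00657, and KCNQ1OT1 was not called. The median log2 fold change of the members was -3.55, against -0.02 over all genes.

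MIR17HG was at 289, 273, 190.1 and 242 CPM in the subpolysomal libraries and at 5.09, 3.41, 4.11 and 4.56 CPM in the polysomal ones, a log2 fold change of -5.85 (SE 0.22, edgeR adjusted p = 7.65e-16). That is 57.7-fold lower, and MIR17HG ranked 29th from the lowest of 16776 genes. NEAT1 was at 1525, 1323, 917 and 1398 CPM against 69.6, 52.1, 53.3 and 75.3 CPM (log2 fold change -4.37, SE 0.20, adjusted p = 9.27e-15). MALAT1 was at 410.0, 336, 269 and 399.6 CPM against 22.1, 21.4, 21.3 and 29.6 CPM (log2 fold change -3.91, SE 0.18, adjusted p = 1.02e-14). None of these libraries overlapped between fractions.

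OIP5-AS1 measured 777, 864, 653 and 524 CPM in subpolysomal RNA and 91.5, 92.5, 35.2 and 87.5 CPM in polysomal RNA (log2 fold change -3.20, SE 0.26, edgeR adjusted p = 6.91e-11). LINC00657 measured 1883, 2265, 1312 and 1693 CPM against 206, 223, 177 and 231 CPM (log2 fold change -3.09, SE 0.19, adjusted p = 4.60e-13). Both cytoplasmic members thus had fractions that did not overlap, as the nuclear ones did. KCNQ1OT1 was the exception, at 14.8, 14.9, 9.84 and 14.7 CPM against 13.6, 9.86, 12.8 and 12.3 CPM (log2 fold change -0.16, SE 0.21, adjusted p = 0.506), and its libraries overlapped. The same calls were made without the libraries labelled polysomal replicate 3, where 38.4% of genes were called lower, and the log2 fold change was -5.81 for MIR17HG, -4.28 for NEAT1, -3.85 for MALAT1, -2.95 for OIP5-AS1, -3.01 for LINC00657 and -0.17 for KCNQ1OT1. KCNQ1OT1 lies inside KCNQ1 on the other strand, and the part of KCNQ1 reads in its counts was not tested.

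Against control siRNA input, the same 5 members were higher in subpolysomal RNA, where 37.5% of genes were called higher. The log2 fold changes were 2.97 for MALAT1 (SE 0.18, edgeR adjusted p = 1.06e-12), 2.66 for NEAT1, 2.90 for MIR17HG, 1.98 for OIP5-AS1 and 1.98 for LINC00657, while KCNQ1OT1 stood at -0.26 (adjusted p = 0.27). MALAT1, MIR17HG and NEAT1 ranked 61st, 76th and 170th from the highest of 16776 genes. Against the same input they were lower in polysomal RNA, where 9.05% of genes were called lower. Here MIR17HG had -2.95 (SE 0.20, adjusted p = 1.83e-09), NEAT1 -1.71 (SE 0.18, adjusted p = 1.30e-06), OIP5-AS1 -1.22 (SE 0.24, adjusted p = 0.00158), LINC00657 -1.11 (SE 0.18, adjusted p = 1.83e-04), MALAT1 -0.94 (SE 0.17, adjusted p = 6.40e-04) and KCNQ1OT1 -0.42 (SE 0.21, adjusted p = 0.169). The polysomal values without the libraries labelled polysomal replicate 3 were -2.92, -1.64, -0.98, -1.04, -0.89 and -0.45 in the same order, with KCNQ1OT1 again not called (edgeR adjusted p = 0.0744), where 13.7% of genes were called lower. Values in CPM are shares of a library, so they do not say how much of a transcript a fraction held.

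With CNOT1 siRNA the same 5 members were lower in polysomal than in subpolysomal RNA, where 34.7% of genes were called lower. The log2 fold changes were -4.67 for MIR17HG, -3.86 for NEAT1, -2.95 for OIP5-AS1, -2.89 for MALAT1 and -2.73 for LINC00657, all with libraries that did not overlap. KCNQ1OT1 had 0.37 (SE 0.21, edgeR adjusted p = 0.129), and passed only without CNOT1 siRNA subpolysomal replicate 1 (KCNQ1OT1 0.53, adjusted p = 0.0436) or polysomal replicate 2 (0.55, 0.0231). Without the libraries labelled polysomal replicate 3 the log2 fold changes were -4.83 for MIR17HG, -3.92 for NEAT1, -3.25 for OIP5-AS1, -3.02 for MALAT1, -2.93 for LINC00657 and 0.07 for KCNQ1OT1, with the same 5 called and 35.9% of genes called lower.

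Lowering CNOT1, the centre of the complex that removes poly(A) tails, was followed by lower levels of the members in input RNA. In each of the 4 replicate numbers every member was lower with CNOT1 siRNA than with control siRNA. How many of all genes did the same, or had libraries that did not overlap, was not counted. By edgeR 4 of the 6 members were called, where 15.6% of genes were called lower. The median log2 fold change of the members was -0.48, against -0.03 over all genes.

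OIP5-AS1 fell most in input, from 180.2, 182, 180.4 and 173 CPM to 92.7, 101, 89.4 and 88.2 CPM (log2 fold change -0.95, SE 0.24, edgeR adjusted p = 0.00905). MIR17HG fell from 30.1, 32.9, 37.2 and 32.6 CPM to 20.4, 19.7, 20.2 and 20.6 CPM (-0.71, SE 0.18, adjusted p = 0.00888). MALAT1 went from 42.8, 46.7, 46.8 and 44.5 CPM to 35.9, 28.5, 32.4 and 32.5 CPM (-0.48, SE 0.17, adjusted p = 0.0324). In these 3 transcripts the groups did not overlap.

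LINC00657 went from 445, 454, 442 and 469 CPM to 333, 326, 333 and 313 CPM with no overlap (log2 fold change -0.47, SE 0.17, edgeR adjusted p = 0.0442). NEAT1 was at 210.3, 218, 184 and 207 CPM and then 162, 147, 148 and 143 CPM, also with no overlap, but was not called (-0.45, SE 0.18, adjusted p = 0.0594). KCNQ1OT1 was at 17.4, 13.8, 17.4 and 16.6 CPM and then 13.8, 9.95, 12.7 and 12.7 CPM, with overlap (-0.41, SE 0.21, adjusted p = 0.134). With the replicate block NEAT1 was called (-0.44, edgeR adjusted p = 0.0375) and LINC00657 was not (-0.47, adjusted p = 0.0516). Without the libraries labelled polysomal replicate 3, which enter the estimate of spread, all 6 members were called in input, with adjusted p = 0.0417 for NEAT1 and 0.0498 for KCNQ1OT1, where 21.1% of genes were called lower.

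The input calls of MALAT1 and LINC00657 sat close to the threshold. The LINC00657 call was lost on leaving out any 1 of the 8 input libraries, with log2 fold changes of -0.48 to -0.45 and adjusted p of 0.0735, 0.0792, 0.0729 and 0.0857 without control siRNA input replicates 1 to 4 and 0.0763, 0.0802, 0.0785 and 0.0897 without CNOT1 siRNA input replicates 1 to 4. The MALAT1 call was lost without control siRNA input replicate 2, 3 or 4 (MALAT1 adjusted p = 0.0678, 0.0688 and 0.0552) and without CNOT1 siRNA input replicate 2, 3 or 4 (0.0868, 0.0654 and 0.0599), while its log2 fold change stayed between -0.54 and -0.43. With no scaling factors neither was called (MALAT1 -0.38, adjusted p = 0.0714, and LINC00657 -0.37, adjusted p = 0.0701), and LINC00657 was not called with RLE factors (0.0595) or by DESeq2 (0.0559). With only the input libraries fitted, NEAT1 (adjusted p = 1.40e-05) and KCNQ1OT1 (0.00385) were called too.

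In subpolysomal RNA the members were lower with CNOT1 siRNA in each of the 4 replicate numbers as well, a count again not made over all genes. By edgeR 5 of the 6 were called, where 19.1% of genes were called lower. MIR17HG went to 153, 153, 83.6 and 126 CPM, below every control library (log2 fold change -0.95, SE 0.18, edgeR adjusted p = 3.55e-04). MALAT1 went to 241, 212, 154 and 162 CPM, again with no overlap (-0.88, SE 0.16, adjusted p = 3.47e-04). OIP5-AS1 went to 455, 508, 313 and 364 CPM, just below the lowest control library (-0.78, SE 0.24, adjusted p = 0.0147). The nuclear and cytoplasmic members were thus both lower in this fraction.

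LINC00657 went to 1368, 1473, 819 and 1151 CPM (log2 fold change -0.57, SE 0.17, edgeR adjusted p = 0.0145) and NEAT1 to 1184, 916, 553 and 904 CPM (-0.54, SE 0.18, adjusted p = 0.0232), both with libraries that overlapped the control. KCNQ1OT1 went to 13, 9.61, 8.17 and 9.07 CPM (-0.44, SE 0.21, adjusted p = 0.111), and was called without the libraries labelled polysomal replicate 3 (adjusted p = 0.0411), where 24.3% of genes were called lower. The library labelled CNOT1 siRNA subpolysomal replicate 3 was the lowest for every member. Without it NEAT1 (-0.36, edgeR adjusted p = 0.0978), OIP5-AS1 (-0.67, 0.0561) and LINC00657 (-0.42, 0.0668) were no longer called.

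Other single libraries also ended calls in subpolysomal RNA. LINC00657 lost its call without control siRNA subpolysomal replicate 2 (log2 fold change -0.44, edgeR adjusted p = 0.0651), and NEAT1 without control siRNA subpolysomal replicate 1 (-0.45, 0.0824) or 4 (-0.50, 0.0562). KCNQ1OT1 gained one without CNOT1 siRNA subpolysomal replicate 1 (-0.60, 0.0486). With no scaling factors NEAT1 (-0.26, edgeR adjusted p = 0.239), OIP5-AS1 (-0.50, 0.0799) and LINC00657 (-0.29, 0.146) were not called, and calls over all genes turned from 40.5% higher to 80.7% higher. With only the subpolysomal libraries fitted NEAT1 (-0.50, 0.102) and LINC00657 (-0.54, 0.0611) were not called. MALAT1 and MIR17HG held in each of these fits.

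In polysomal RNA no member was called, and edgeR called 0% of genes, although 1123 of 16776 genes had an unadjusted p under 0.05. The CNOT1 siRNA libraries had 24.7, 18, 33 and 28.1 CPM of MALAT1, 59.4, 47.4, 69.9 and 67.9 CPM of NEAT1, 5.27, 3.06, 6.79 and 5.15 CPM of MIR17HG and 13.1, 8.03, 20.4 and 10.1 CPM of KCNQ1OT1, all overlapping with the control. The log2 fold changes were 0.14, -0.03, 0.23 and 0.08. The library labelled CNOT1 siRNA polysomal replicate 3 was the highest of its group for each of these transcripts.

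OIP5-AS1 had its odd values in the same libraries as CNOT1. It measured 40.3, 42.6, 84.8 and 45 CPM in the polysomal libraries labelled CNOT1 siRNA and 91.5, 92.5, 35.2 and 87.5 CPM in those labelled control, and the odd value in each group was that of replicate 3, as it was for CNOT1. With all libraries the log2 fold change was -0.53 (SE 0.24, edgeR adjusted p = 0.663). Without the libraries labelled polysomal replicate 3 it was -1.09 (SE 0.15, adjusted p = 1.70e-05), with means of 42.6 ± 2.37 against 90.5 ± 2.62 CPM (SD, n = 3). Leaving out only the control library of that number gave -0.77 for OIP5-AS1 (edgeR adjusted p = 0.0117), and only the CNOT1 siRNA one gave -0.85 (0.0419).

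LINC00657 measured 146, 145, 253 and 180.1 CPM in the polysomal libraries labelled CNOT1 siRNA, again highest in replicate 3, and its control libraries were lowest there. Without the libraries labelled polysomal replicate 3 its log2 fold change was -0.49 (SE 0.17, edgeR adjusted p = 0.0307), and 157 ± 20.1 CPM stood against 220.1 ± 13 CPM (SD, n = 3). In that fit 14.6% of genes were called lower. The nuclear members were not called in it, with -0.05 for MALAT1, -0.17 for NEAT1, -0.20 for KCNQ1OT1 and 0.04 for MIR17HG.

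**Figure D4:**
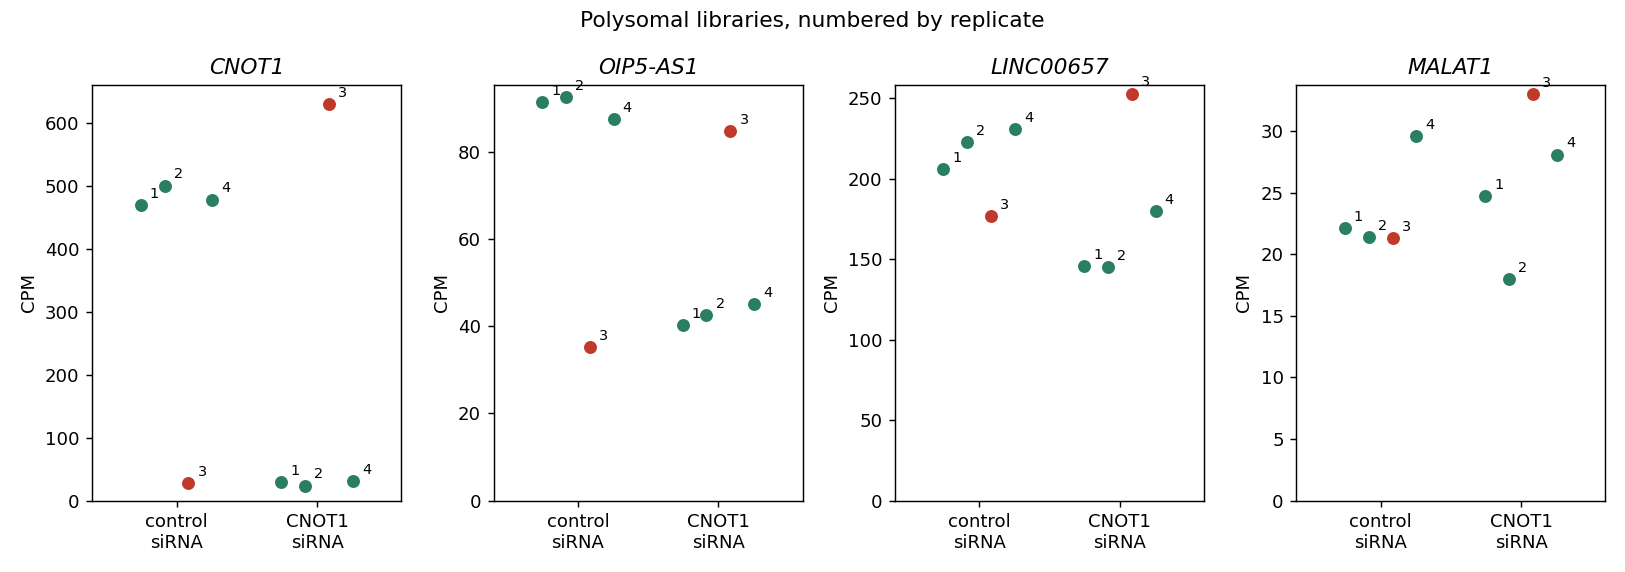
Levels (CPM, axes from 0) of CNOT1, OIP5-AS1, LINC00657 and MALAT1 in the 8 polysomal libraries, by labelled group and numbered by replicate. The libraries labelled replicate 3 (red) have 28.3 CPM of CNOT1 under control siRNA and 631 CPM under CNOT1 siRNA, and 35.2 and 84.8 CPM of OIP5-AS1. Whether they were exchanged was not tested.

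**Figure D5:**
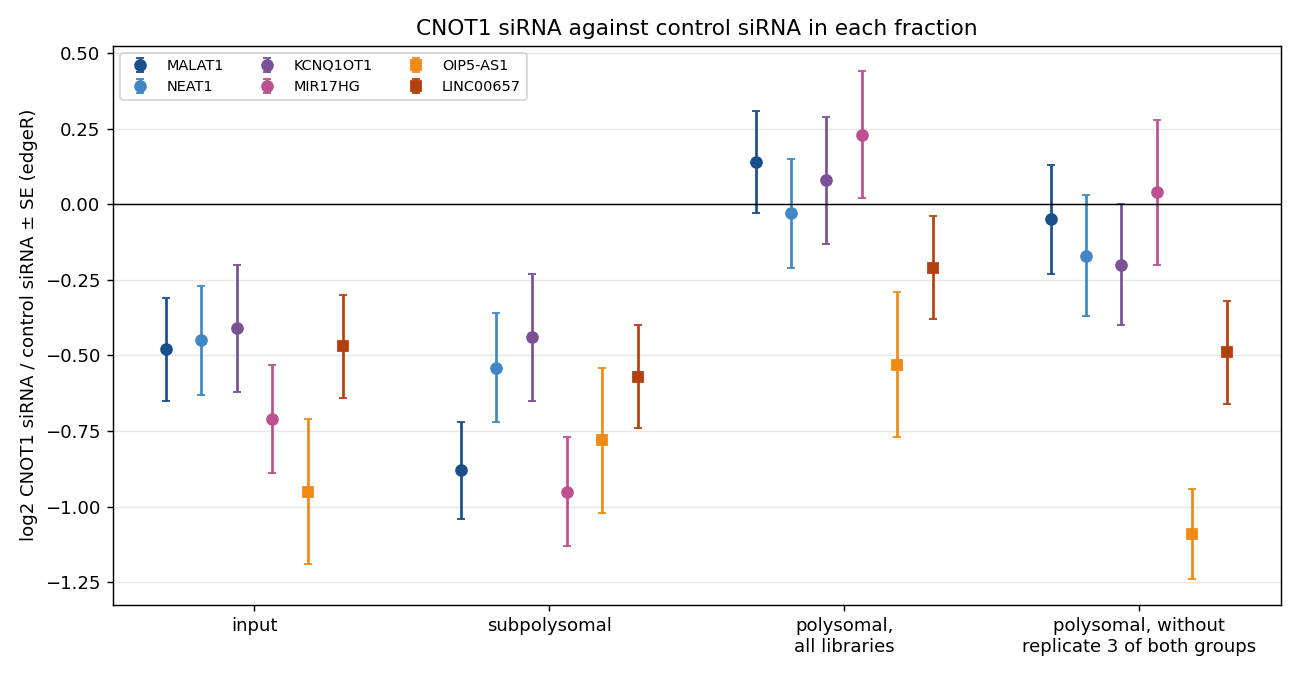
Log2 fold change of each member with CNOT1 siRNA against control siRNA (edgeR; bars are ± SE) in input, subpolysomal and polysomal RNA, and in polysomal RNA without the libraries labelled replicate 3. All members lie below 0 in input and subpolysomal RNA. In the last set OIP5-AS1 (-1.09) and LINC00657 (-0.49) lie below 0 by more than their SE.

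The difference of the CNOT1 siRNA effect between fractions was tested as an interaction, polysomal minus subpolysomal. It was positive and called for MIR17HG (1.18, SE 0.27, edgeR adjusted p = 0.011) and MALAT1 (1.01, SE 0.23, adjusted p = 0.0115), where 3.26% of genes were called higher. For MIR17HG the CNOT1 siRNA effect was -0.95 in subpolysomal and 0.23 in polysomal RNA, and for MALAT1 it was -0.88 and 0.14. NEAT1 (0.50, adjusted p = 0.248), KCNQ1OT1 (0.53, 0.321), LINC00657 (0.36, 0.417) and OIP5-AS1 (0.25, 0.715) were not called. Without the libraries labelled polysomal replicate 3 the value was 0.99 (adjusted p = 0.0188) for MIR17HG and 0.83 (adjusted p = 0.0163) for MALAT1, where 9.99% of genes were called higher. In that fit NEAT1 had 0.36, KCNQ1OT1 0.24, LINC00657 0.08 and OIP5-AS1 -0.31, none called. With only the polysomal and subpolysomal libraries fitted both calls were lost (MIR17HG adjusted p = 0.0791, MALAT1 adjusted p = 0.0815).

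The TNRC6 proteins link Argonaute, which carries microRNAs, to Ccr4-Not, and their loss addresses transcripts that microRNAs hold down. With 2 libraries per group edgeR called 0% of 14064 genes, 289 of them with an unadjusted p under 0.05, and DESeq2 called 1. OIP5-AS1 measured 124 and 154 CPM with control siRNA and 257 and 225 CPM with TNRC6A/B siRNA, with no overlap (log2 fold change 0.79, SE 0.21, edgeR adjusted p = 1). Its unadjusted p was among those under 0.05, and it ranked 222nd from the highest of 14064 genes. With the replicate number as a block its adjusted p was 5.15e-05, in a fit that called 3.7% of genes higher, but 2 pairs do not show that the numbers pair the libraries.

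The other members spread widely within the TNRC6 groups. MALAT1 had 24.8 and 59.3 CPM with control siRNA and 22.7 and 39.9 CPM with TNRC6A/B siRNA, NEAT1 101 and 191 against 86.5 and 129 CPM, and LINC00657 230.4 and 411 against 273 and 375 CPM. MIR17HG had 13 and 56.7 against 11.6 and 37.4 CPM, so the libraries of 1 group differed more than the groups. KCNQ1OT1 did not overlap between groups (72.3 and 86.7 against 63.2 and 70.6 CPM), with a log2 fold change of -0.25 (SE 0.22, edgeR adjusted p = 1). The log2 fold changes of the others were -0.43 for MALAT1, -0.43 for NEAT1, -0.50 for MIR17HG and 0.01 for LINC00657.

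The 4 nuclear members can be read beside a list of other lncRNAs set down by name as nuclear. It includes H19 and HOTAIR, and how far each of its lncRNAs lies in the nucleus was not measured here. Of the 16 lncRNAs of this list that were tested, 9, 9 and 10 were higher and 1 was lower in the eIF4A1, eIF4A2 and DDX6 IPs. Their medians were 0.54, 0.59 and 0.58 on the log2 scale, and 26.1%, 24.5% and 22.7% of all genes were called higher. These counts describe the list and not nuclear lncRNAs in general. HOTAIR (log2 fold changes 1.55, 1.37 and 1.17) and PVT1 (1.11, 1.13 and 1.27) were higher in all 3. The 1 lower was MIAT, a transcript known from nuclear domains (-2.30 with SE 0.36, -1.26 with SE 0.33 and -1.87 with SE 0.34). Against the DDX6 IP, 3 of the 16 were higher in the eIF4A2 IP and 2 were lower (median 0.20), where 9.82% and 11.3% of all genes were called. In the gradients 13 of the 16 were lower in polysomal than in subpolysomal RNA of control cells and none was higher (median -1.70), against 37% of all genes lower, and with CNOT1 siRNA 8 were lower in input (median -0.58), against 15.6%. These counts were 14 and 9 without the libraries labelled polysomal replicate 3, against 38.4% and 21.1% of all genes lower.

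MIR17HG can be set beside other lncRNAs that host microRNAs, of which 7 were tested. In the eIF4A1, eIF4A2 and DDX6 IPs 1, 1 and 2 of the 7 were higher and 1 was lower in each, and the others were not called. The median log2 fold changes were -0.10, 0.30 and -0.21. Of all genes 26.1%, 24.5% and 22.7% were called higher and 26.5%, 25.8% and 23.3% lower. With the replicate block 2, 1 and 2 of the 7 were higher and 1, 2 and 2 lower. MIR22HG, the host of miR-22, was lower in all 3 IPs (log2 fold changes -2.08, -1.45 and -2.31), and MIR4458HG was higher (0.65, 0.72 and 0.93). Between polysomal and subpolysomal RNA 6 of the 7 were lower, led by MIR503HG (-5.13, SE 0.32), MIR22HG (-4.51, SE 0.36) and DLEU2 (-3.66, SE 0.27), and 1 was higher, against 37% of all genes lower. With CNOT1 siRNA 5 were lower in input, against 15.6% of all genes, among them MIR503HG (-1.07, SE 0.28). The higher level in the eIF4A2 than in the DDX6 IP was not particular to MIR17HG. In that comparison 3 of the 7 were higher and 1 was lower (median 0.64), against 9.82% and 11.3% of all genes. With the replicate block 4 were higher and 1 lower, against 18.5% of all genes higher. Relative to the eIF4A1 IP none of the 7 was called, where 0.973% of all genes were called higher.

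Of 13 other lncRNAs known from the cytoplasm, many of them hosts of small nucleolar RNAs, 9, 8 and 11 were higher and none lower in the eIF4A1, eIF4A2 and DDX6 IPs, against 26.1%, 24.5% and 22.7% of all genes higher. CRNDE led in each (log2 fold changes 1.53, 1.71 and 1.49). In polysomal against subpolysomal RNA 11 were lower (37% of all genes) and 1 higher, with SNHG5 (-4.85, SE 0.28) and SNHG6 (-4.52, SE 0.25) furthest down. With CNOT1 siRNA 9 were lower in input (15.6% of all genes), ZFAS1 (-1.02, SE 0.26) and SNHG6 (-0.97, SE 0.22) the most. None of the members of these 3 lists was called in the TNRC6 experiment, where edgeR called 0% of all genes, so no list could have had a call.

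Paraspeckles form on NEAT1 and speckles hold MALAT1, and the mRNAs of proteins of both bodies were counted. Of 12 mRNAs for paraspeckle proteins 11, 10 and 10 were lower and none higher in the eIF4A1, eIF4A2 and DDX6 IPs, among them RBMX (log2 fold changes -1.57, -1.37 and -1.42) and SFPQ (-1.49, -1.32 and -1.06), against 26.5%, 25.8% and 23.3% of all genes lower. In control cells 8 of them were higher in polysomal than in subpolysomal RNA, HNRNPK the most (1.99, SE 0.11), and 1 was lower, against 34.8% of all genes higher. The counts were again 8 and 1 without the libraries labelled polysomal replicate 3, against 33.7% higher. Of 12 mRNAs for nuclear speckle proteins 8, 5 and 8 were lower in the same IPs and 0, 2 and 0 higher. Relative to the eIF4A1 IP, 3 of them were higher in the eIF4A2 IP, RBM25 (1.29, SE 0.18) and the splicing kinases CLK1 and CLK4 (both 0.95, SE 0.16). Of all genes 0.973% were called higher in that comparison. With the replicate block it was 4 of the 12, against 7.12% of all genes.

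With CNOT1 siRNA 9 of the 12 speckle mRNAs and 8 of the 12 paraspeckle mRNAs were lower in subpolysomal RNA, against 19.1% of all genes, and 4 of each in input, against 15.6%. In input, 4 speckle and 7 paraspeckle mRNAs were lower when the libraries labelled polysomal replicate 3 were left out, against 21.1%. The interaction called for MALAT1 was called and positive for 5 of the speckle mRNAs, RBM25 first (0.85, SE 0.23), and for 2 of the paraspeckle mRNAs, RBMX (0.59, SE 0.14) and HNRNPH3 (0.54, SE 0.14), against 3.26% of all genes. Leaving out the libraries labelled polysomal replicate 3 gave counts of 6 and 4, against 9.99%, with RBM25 at 1.02, RBMX at 0.45 and HNRNPH3 at 0.39. No mRNA of either list was called with TNRC6A/B siRNA, where edgeR called 0% of all genes, so none could have been.

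NORAD is known through its partners, and 5 of the 6 listed mRNAs of that pathway were tested. NANOS1, which acts with the Pumilio proteins, was higher in the eIF4A1, eIF4A2 and DDX6 IPs (log2 fold changes 1.75, 1.73 and 1.46) and so was PUM2 (0.55, 0.96 and 0.73). KHDRBS1 (-1.14, -1.43 and -0.66) and RBMX were lower in all 3. With CNOT1 siRNA 1 of the 5 was higher in input, PUM2 (0.41, SE 0.14), and 1 was lower, RBMX (-0.37, SE 0.10), against 13.4% and 15.6% of all genes. Without the libraries labelled polysomal replicate 3, 2 of the 5 were higher in input and 3 lower, against 21.1% of all genes lower. Of 6 imprinted neighbours of KCNQ1OT1, 1, 2 and 1 were lower in the eIF4A1, eIF4A2 and DDX6 IPs, against 26.5%, 25.8% and 23.3% of all genes. They were SLC22A18 in each (-1.13, -1.84 and -1.61) and PHLDA2 in the eIF4A2 IP (-1.02, SE 0.39). H19 was higher in the DDX6 IP (0.95, SE 0.31), where 22.7% of all genes were called higher. Of 4 neighbours tested in the gradients none was called with CNOT1 siRNA. Of all genes 15.6% were called lower and 13.4% higher in input, 19.1% lower in subpolysomal RNA and 0% in polysomal RNA. At these shares the lack of a call among 4 genes says little about them. OIP5, which overlaps OIP5-AS1 on the other strand, was higher in polysomal than in subpolysomal RNA of control cells (1.31, SE 0.12), the reverse of OIP5-AS1.

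Across the means of the 12 groups, the genes with the most similar profile to each member were found among 9669 genes with a mean of at least 10 CPM, by Pearson r of log2(CPM + 0.5). They were PRPF38B (r = 0.976) and TRIM52 (0.975) for MALAT1, CAPN10-AS1 (0.983) and JRKL (0.979) for NEAT1, and SCARNA15 (0.991) and RANBP6 (0.97) for MIR17HG. ZBTB34 (0.986) and BEND7 (0.98) were nearest to LINC00657, and ARNTL2 (0.971) and DNAJC27 (0.962) to OIP5-AS1. KCNQ1OT1 had the lowest values, with INVS (0.934) and NOTCH2NL (0.912). Among the members themselves MALAT1 and NEAT1 were closest (0.947), and KCNQ1OT1 had between -0.372 and 0.237 with each of the others. Groups of 1 experiment share their preparation, and r over 12 means is given as a description.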

How the data were processed

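RNA-Seq libraries were made by the authors with a stranded poly(A) mRNA kit. Per the labels and the submitters' processing notes, reads were demultiplexed with bcl2fastq 2.0, aligned to hg19 with TopHat2 and counted per gene with HTSeq, and the deposited values are raw counts per gene, 1 file for each of the 40 libraries. The strand option of the counter is not given in the sources used here. A merged table holds the authors' own comparisons of the immunoprecipitations and was not used.

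Counts were tested with edgeR 4.0.16 (limma 3.58.1, R 4.3.3) in 1 quasi-likelihood fit per experiment (12, 24 and 4 libraries), after its default filter on low counts and with TMM factors. Benjamini-Hochberg adjustment ran over all genes tested, and genes with an adjusted p under 0.05 were called. Alternatives were DESeq2 1.42.0, RLE factors, no factors, no filter, a replicate block, only the libraries compared, leaving out each library, and leaving out both polysomal libraries of replicate 3. The fits were tested on simulated data. Total counts of 15353317 to 46018900 per library set the precision, and counting intervals were not needed because replicates gave the errors.

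Groups and replicate numbers came from the labels. For RIP total RNA replicate 3 the description of the sample gave another replicate number than its title, and the title was used. Same-numbered libraries deviated together in the RIP experiment (r of 0.138 to 0.628 between deviations from group means) and between CNOT1 and control siRNA in input (0.134 to 0.235) and subpolysomal RNA (0.469 to 0.629), but not in polysomal RNA (-0.519 to 0.08). The numbers were taken to pair the libraries in the former. The fits reported are without the block, and blocked values are given where the block changed a call or moved a count of calls by over 1.5 times.

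Named genes were the 6 members, the targeted or precipitated genes, the 2 genes with the most similar profile to each member, and up to 4 called genes per list and comparison with the largest change. The members and lists were chosen with earlier results of these data known. Annotation was GENCODE 44 on GRCh37, and microRNA sequences came from RefSeq.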

Additional observations from a re-analysis of the deposited data

Results flagged for a closer look

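In 36 sets of 4 libraries, each a member in a group, 5 had 1 library far from the other 3, where chance flags about 1 in 20 groups. OIP5-AS1 gave 3 of them: 35.2 CPM in the library labelled control siRNA polysomal replicate 3 (the others at 87.5 to 92.5 CPM), 84.8 CPM in that labelled CNOT1 siRNA polysomal replicate 3 (40.3 to 45 CPM), and 173 CPM in control siRNA input replicate 4 (180.2 to 182 CPM). CNOT1 itself stood at 28.3 and 631 CPM in the first pair of these libraries, against their labels. MALAT1 measured 29.6 CPM in control siRNA polysomal replicate 4 (21.3 to 22.1 CPM), and KCNQ1OT1 measured 9.84 CPM in control siRNA subpolysomal replicate 3 (14.7 to 14.9 CPM).

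The effect of CNOT1 siRNA differed between polysomal and subpolysomal RNA for MALAT1 (interaction 1.01 on the log2 scale) and MIR17HG (1.18), as tested in edgeR.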

How the results depend on the processing

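Of 582 member fold changes under other settings, 538 kept direction and side of the threshold, 17 gained and 20 lost a call and 7 reversed, none of these called. Reversed values were, with no scaling factors, KCNQ1OT1 -0.04 (DDX6 against eIF4A1 IP, also -0.04 with the replicate block), OIP5-AS1 -0.01 (interaction) and LINC00657 -0.01 (TNRC6), and, without both polysomal libraries of replicate 3, MALAT1 -0.05 and KCNQ1OT1 -0.20 (CNOT1 siRNA, polysomal) and OIP5-AS1 -0.31 (interaction). The cause was not tested.

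Members called went from 2 to 0 with only the libraries compared (eIF4A2 against eIF4A1 IP, and the interaction), from 3 to 5 with the replicate block (eIF4A2 against DDX6 IP), from 4 to 2 with no scaling factors (CNOT1 siRNA, input), from 5 to 2 with no scaling factors or 3 with only the libraries compared (subpolysomal), from 0 to 2 without both polysomal libraries of replicate 3 (polysomal), and from 0 to 1 with the block (TNRC6, r = 0.821 over only 2 pairs, which does not show pairing). The block changed, of the other calls, those given for OIP5-AS1, NEAT1 and LINC00657.

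Leaving out 1 library gave 5 to 6 members called in the eIF4A1 IP, 3 to 5 in the eIF4A2 IP, 6 in the DDX6 IP, 1 to 2 for eIF4A2 against eIF4A1, 2 for eIF4A2 against DDX6, 0 for DDX6 against eIF4A1, 5 for polysomal against subpolysomal (5 to 6 with CNOT1 siRNA) and for each fraction against input, 2 to 3 for CNOT1 siRNA in input, 2 to 6 in subpolysomal and 0 to 1 in polysomal RNA, 2 for the interaction and 0 for TNRC6. Uncalled values that changed sign ranged, for eIF4A2 against eIF4A1, over -0.10 to 0.39 (NEAT1) and -0.03 to 0.79 (KCNQ1OT1). For eIF4A2 against DDX6 KCNQ1OT1 ranged over -0.09 to 0.82. For DDX6 against eIF4A1 the ranges were -0.34 to 0.34 (KCNQ1OT1), -0.29 to 0.07 (MALAT1) and -0.18 to 0.02 (MIR17HG). For CNOT1 siRNA in polysomal RNA they were 0.00 to 0.27 (MALAT1), -0.11 to 0.07 (NEAT1, and -0.17 without both polysomal libraries of replicate 3) and -0.23 to 0.25 (KCNQ1OT1), and for the interaction -0.07 to 0.37 (OIP5-AS1). For TNRC6 they were -0.93 to 0.39 (MALAT1), -0.83 to 0.15 (NEAT1), -1.57 to 0.97 (MIR17HG) and -0.35 to 0.55 (LINC00657).

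Over all genes, calls went from 185 to 997 (no filter), 2766 (block), 24 (only the libraries compared) and 658 (DESeq2) for eIF4A2 against eIF4A1, from 3685 to 7074 (block) for eIF4A2 against DDX6, and from 16 to 232 (no filter), 1730 (block), 0 (only compared) and 549 (DESeq2) for DDX6 against eIF4A1. Without both polysomal libraries of replicate 3 they went from 2470 to 4082 (polysomal against input), 0 to 5426 (CNOT1 siRNA, polysomal; 46 with no filter) and 949 to 2994 (interaction; 2175 with no factors, 157 only compared, 1484 DESeq2). CNOT1 siRNA input went from 4859 to 9561 (only compared) and TNRC6 from 0 to 23 (no filter), 763 (block) and 1 (DESeq2). With no scaling factors the percentage of calls that were higher went from 49.5 to 67.5, 48.7 to 69.6 and 49.3 to 62.8 in the eIF4A1, eIF4A2 and DDX6 IPs, 46.6 to 70.1 (eIF4A2 against DDX6), 87.5 to 75 (DDX6 against eIF4A1), 49.6 to 34.9 (polysomal against subpolysomal, CNOT1 siRNA), 38.5 to 48.7 (polysomal against input), 46.2 to 65.6 and 40.5 to 80.7 (CNOT1 siRNA, input and subpolysomal) and 57.6 to 8.83 (interaction; 46.5 with RLE). The median of all genes then shifted to 0.29, 0.32 and 0.16 in the IPs.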
